A study of Mus musculus with 17 samples.

Results

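Macrophages display ligands and receptors that raise or restrain the response of T cells, and 8 genes of this kind were followed here in mouse peritoneal macrophages (PMs) exposed to the HIV protein Tat. The genes were Cd80, Cd86, Cd40, Icosl, Cd274, Pdcd1lg2, Lgals9 and Havcr2, taken by symbol from the 21683 rows of the deposited expression table. Of these, 6 encode ligands, while Cd40 and Havcr2 encode receptors. RNA-Seq covered 17 libraries of thioglycollate-elicited PMs in 3 groups. The first was PMs of IKKβF/F mice with PBS as control (F/F PBS, n = 6), the second was PMs of the same genotype treated with Tat at 100 nM (F/F Tat, n = 6), and the third came from IKKβΔMye mice with the same dose of Tat (ΔMye Tat, n = 5). Cells of 8-week-old mice on a C57BL/6 background were left to attach for 4 h and were then treated for 12 h. All groups carry loxP-flanked IKKβ alleles, and ΔMye mice carry in addition a heterozygous LysM-Cre knock-in, which deletes IKKβ in myeloid cells. The methods name male mice, a recombinant Tat encoded by the first exon and made in bacteria with endotoxin removed, and PBS rather than the placebo preparation as the RNA-Seq control. PBS-treated PMs of the deleted genotype were not analysed here, so a genotype difference that existed without Tat cannot be told apart from one seen under Tat. The study describes its RNA-Seq libraries as biological replicates of mice, which the labels do not state.

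CD80 and CD86 are the B7 ligands of CD28, which costimulates T cells, and of CTLA-4, which inhibits them. CD40 receives the signal of CD40 ligand on helper T cells and is a known inducer of B7 expression, and ICOS ligand (Icosl) engages ICOS on activated T cells. PD-L1 (Cd274) and PD-L2 (Pdcd1lg2) bind the inhibitory receptor PD-1, and galectin-9 (Lgals9) is a lectin that binds several glycoproteins, among them TIM-3 (Havcr2), an inhibitory receptor of T cells and myeloid cells. IKKβ is the kinase that releases canonical NF-κB from its inhibitors.

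Cd274 (chromosome 19, 29367455 to 29388095 of GRCm38) and Pdcd1lg2 (chromosome 19, 29410919 to 29471161) lie on the same strand with 22823 bases between them. Cd80 (38455561 to 38496335) and Cd86 (36603869 to 36666081) are both on chromosome 16, on opposite strands. Cd40 lies on chromosome 2 (165055627 to 165072948), Icosl on chromosome 10 (78069302 to 78083913), and Havcr2 (46454935 to 46481255) and Lgals9 (78962974 to 78984946) on chromosome 11. Annotated antisense genes overlap Cd274 (AC119228.1) and Pdcd1lg2 (A930007I19Rik), and the sources used here do not state whether strand was used in the quantification. At most 2.98% of the 31-base sequences of a member's transcripts occur in other genes (Cd40), and 0 do so for Pdcd1lg2 and Lgals9. RefSeq promoter sequences (GRCm38.p6) of the 250 bases before the start were present for 6 of the 8 genes and not for Cd40 and Cd86. They were searched on both strands for the NF-κB consensus, for the STAT site GAS (TTCNNNGAA) and for the interferon-stimulated response element ISRE (GAAA, any 2 bases, GAAA). The NF-κB consensus matched in Pdcd1lg2 and Icosl, against 7.25% of all 32817 promoter windows. The ISRE matched in Lgals9, against 2.97% of the windows, and GAS matched in none of the 6 windows, against 7.01%. The promoters of the neighbours Cd274 and Pdcd1lg2 are shown because their levels moved differently, Icosl because it was higher in ΔMye Tat, and Lgals9 because it was lower there. Each is written 5′ to 3′ along the gene, with matches in capitals. The coordinates are chr19:29367188-29367437 (plus strand) for Cd274, chr19:29410669-29410918 (plus) for Pdcd1lg2, chr10:78069118-78069367 (plus) for Icosl and chr11:78984925-78985174 (minus) for Lgals9.
Cd274: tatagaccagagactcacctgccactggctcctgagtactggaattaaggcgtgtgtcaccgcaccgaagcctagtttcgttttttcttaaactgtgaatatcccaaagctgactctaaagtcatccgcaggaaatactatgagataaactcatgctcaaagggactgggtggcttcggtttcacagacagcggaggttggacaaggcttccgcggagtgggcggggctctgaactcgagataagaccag
Pdcd1lg2: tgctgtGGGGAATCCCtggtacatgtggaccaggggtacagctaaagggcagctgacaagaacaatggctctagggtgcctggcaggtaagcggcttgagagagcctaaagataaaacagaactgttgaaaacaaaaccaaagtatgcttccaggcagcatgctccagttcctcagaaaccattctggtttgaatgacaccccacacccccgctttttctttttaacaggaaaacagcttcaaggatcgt
Icosl: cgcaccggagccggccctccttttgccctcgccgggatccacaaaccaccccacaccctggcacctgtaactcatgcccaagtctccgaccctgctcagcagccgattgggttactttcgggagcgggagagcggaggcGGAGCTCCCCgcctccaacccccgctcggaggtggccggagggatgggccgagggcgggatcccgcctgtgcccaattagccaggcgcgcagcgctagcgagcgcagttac
Lgals9: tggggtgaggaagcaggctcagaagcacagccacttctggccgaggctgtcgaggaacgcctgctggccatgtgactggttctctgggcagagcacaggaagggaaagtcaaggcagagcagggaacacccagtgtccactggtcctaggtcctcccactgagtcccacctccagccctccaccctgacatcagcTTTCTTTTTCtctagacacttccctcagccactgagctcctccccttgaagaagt
The NF-κB match in Pdcd1lg2 lies 244 to 235 bases before the start. That in Icosl lies at 111 to 102 and the ISRE in Lgals9 at 55 to 46 bases before the start, both read on the opposite strand. A match describes these letters and shows no binding, and the absence of a match concerns this window only.

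The deposited values are TPM, the unit of transcript abundance given by Salmon, which is normalized for transcript length and library total, from which the read depth of a library cannot be known. The listed TPM summed to 889318 to 903576 over the 17 libraries, and 9260 to 10378 genes reached 1 TPM. The 8 macrophage markers (Adgre1, Cd68, Csf1r, Itgam, Mertk, Fcgr1, Cd14 and Lyz2) were all at a mean of 1 TPM or more in each group, with summed levels of 25796 to 26807 TPM with PBS, 10310 to 10890 with F/F Tat and 8019 to 8344 TPM with Tat after deletion. Lyz2, the locus that carries the Cre, made up most of these sums, with means of 22382, 6993 and 4333 TPM. Of the other markers Fcgr1 also had a lower mean after deletion than in F/F Tat (164 against 300.1 TPM), while Adgre1, Cd68, Csf1r, Itgam, Mertk and Cd14 had higher means, a direction that turned after scaling for Adgre1, Cd68 and Itgam. Ikbkb, which encodes IKKβ, was at 24.5, 26.8 and 30.1 TPM (lowest, median, highest) in F/F PBS and at 21.6, 22.9 and 25.4 TPM in F/F Tat. In the ΔMye Tat libraries it was at 19.9, 16.3, 15.6, 17.5 and 12.8 TPM, all below the F/F Tat libraries. The mean was 70.7% of that in F/F Tat, a log2 fold change of -0.51 (SE 0.08, adjusted p = 4.51e-05, limma), although reads from the exons that are not deleted still count in this TPM. The 10451 genes that reached 1 TPM in 5 or more libraries, all 8 members among them, were tested with limma on log2(TPM + 0.1), so fold changes of low genes are understated. Genes were called at an adjusted p (Benjamini-Hochberg over all tested genes) under 0.01 and a fold change over 3, and "passed the adjusted p" refers to the first threshold alone. The median log2 fold change over all tested genes was -0.65 between Tat and PBS in F/F PMs and 0.22 between the genotypes under Tat, and -0.03 and 0.01 after median-ratio scaling of the libraries. Scaled values of the members are therefore given where they change a call.

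The first comparison asked how Tat changed the levels in F/F macrophages. Of the 8 genes, 7 were higher with Tat and Havcr2 was lower. Cd40 rose 25.3-fold, Cd86 6.59-fold, Cd274 5.17-fold, Cd80 4.10-fold and Lgals9 2.73-fold, with smaller rises of Icosl and Pdcd1lg2, while Havcr2 fell to 4.60% of its level with PBS. The 4 members called higher were Cd80, Cd86, Cd40 and Cd274, beside 5.21% of all tested genes, and the 1 called lower was Havcr2, beside 19.4%. By the adjusted p alone 7 were higher and 1 lower, beside 17% and 67.6% of the tested genes. The ranges of the groups did not overlap for 7 members, the exception being Pdcd1lg2, beside 77.6% of all tested genes. The 8 genes had a median log2 fold change of 1.74, against -0.65 over all tested genes.

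**Figure D1:**
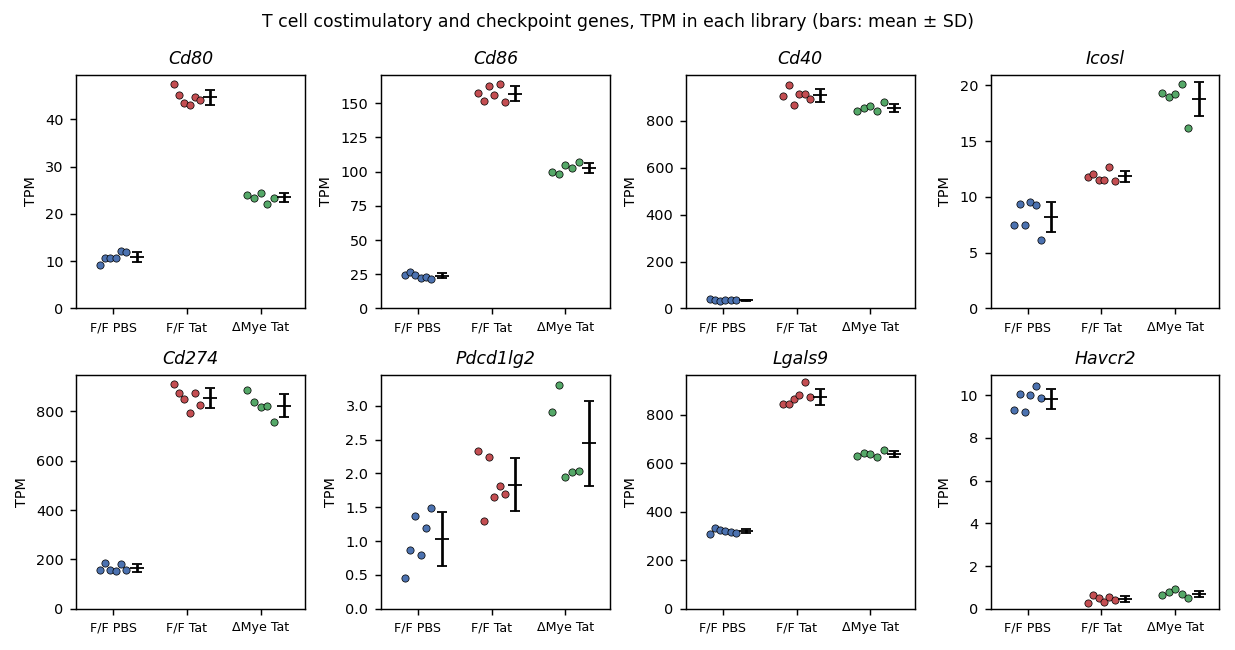
TPM (vertical axis, linear, from 0) of each of the 8 genes in every library, one panel for each gene, with F/F PBS in blue (n = 6), F/F Tat in red (n = 6), ΔMye Tat in green (n = 5), and bars for the mean ± SD. With Tat all genes but Havcr2 sit higher, and the ΔMye Tat libraries of Cd80, Cd86 and Lgals9 lie between the other groups.

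Among the B7 ligands of CD28, Cd80 was at 9.26, 10.7 and 12.1 TPM (lowest, median, highest) in F/F PBS and at 43.0, 44.4 and 47.5 TPM in F/F Tat. The lowest Tat library was thus above the highest PBS library. The means were 10.9 ± 1.04 TPM (SD, n = 6) and 44.6 ± 1.62 TPM (n = 6), a log2 fold change of 2.03 (SE 0.06, adjusted p = 2.32e-17, limma). Cd86 was at 21.8, 23.8 and 26.5 TPM in F/F PBS and at 150.7, 156.7 and 163.9 TPM in F/F Tat, again with no overlap. Its log2 fold change was 2.72 (SE 0.04, adjusted p = 4.46e-21, limma), from 23.8 ± 1.77 to 157 ± 5.39 TPM. For these genes, and for the other members except Pdcd1lg2, the exact two-sided permutation test between the groups gave p = 0.00216, the smallest that 6 against 6 libraries allow.

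Cd40 had the largest change of the 8 genes. It was at 33.2, 35.8 and 39.4 TPM in F/F PBS and at 869, 910.0 and 951 TPM in F/F Tat, with means of 35.9 ± 2.04 and 908 ± 27.1 TPM and a log2 fold change of 4.66 (SE 0.03, adjusted p = 2.07e-26, limma). Among the 10451 tested genes its mean level ranked 2887th from the highest in F/F PBS and 170th in F/F Tat. Icosl changed least among the costimulatory ligands, from 6.13, 8.35 and 9.51 TPM in F/F PBS to 11.4, 11.7 and 12.7 TPM in F/F Tat. The groups did not overlap, and the means of 8.18 ± 1.37 and 11.8 ± 0.490 TPM gave a log2 fold change of 0.54 (SE 0.09, adjusted p = 1.81e-05, limma).

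The PD-1 ligands were far apart in level. Cd274 was already at 154, 158 and 187 TPM in F/F PBS, in the 93.2 percentile of the tested genes, and reached 793, 861 and 910.4 TPM in F/F Tat. Its log2 fold change was 2.37 (SE 0.05, adjusted p = 3.31e-19, limma), with means of 165 ± 14.3 and 855 ± 41.4 TPM and no overlap. Pdcd1lg2 was at 0.448, 1.03 and 1.49 TPM in F/F PBS and at 1.30, 1.75 and 2.33 TPM in F/F Tat. The highest PBS libraries overlapped the lowest Tat library, and only 3 of the 6 PBS libraries reached 1 TPM. Pdcd1lg2 needed the Tat groups to reach the 5 libraries of the filter, so a higher level with Tat was built into its being tested. Its log2 fold change was 0.84 (SE 0.23, adjusted p = 0.00227, limma; exact permutation p = 0.00649), from 1.03 ± 0.396 to 1.84 ± 0.387 TPM. The size depends on the normalization, with 1.42 after median-ratio scaling and 2.06 after quantile normalization, the latter past the fold threshold (adjusted p = 3.01e-08, limma, in a range over the alternatives with all libraries up to 0.00846).

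Lgals9 was the most abundant of the 8 genes with PBS and one of the least variable. It was at 309, 320.1 and 334 TPM in F/F PBS and at 843, 869 and 933 TPM in F/F Tat. Its log2 fold change was 1.45 (SE 0.03, adjusted p = 3.92e-20, limma), from 320.2 ± 8.88 to 873 ± 33.1 TPM, which missed the fold threshold without scaling. After median-ratio scaling the log2 fold change was 2.08, which brought the members called higher to 5, beside 8.51% of the tested genes called higher and 9.73% called lower, with Havcr2 again the 1 called lower. Havcr2, whose product is a receptor for galectin-9, was at 9.21, 9.92 and 10.4 TPM in F/F PBS and at 0.285, 0.468 and 0.636 TPM in F/F Tat, where no library reached 1 TPM. The log2 fold change was -4.20 (SE 0.16, adjusted p = 4.36e-15, limma), from 9.81 ± 0.468 to 0.452 ± 0.137 TPM, and -2.90 with a pseudocount of 1. Havcr2 passed the filter on low values through the F/F PBS libraries alone, so a lower level with Tat was built into its being tested.

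In bulk RNA, fewer cells of a type and less RNA per cell cannot be told apart, and dendritic cells and B cells also express B7 ligands, Cd40 and Icosl. Of 9 dendritic cell markers 3 (Ccr7, Batf3 and Itgax) were at a mean of 1 TPM or more in each group, while Flt3, Zbtb46, Xcr1, Clec9a, Cd209a and Siglech stayed under 1 TPM. Their summed level was 43.5 to 51.4 TPM with PBS, 55.8 to 66.1 with F/F Tat and 50.8 to 63.1 TPM in the ΔMye group. The markers in it went different ways, since with Tat the mean of Ccr7 went from 9.01 to 42.3 TPM in F/F PMs, that of Itgax from 31.3 to 13.6 TPM and that of Batf3 from 4.22 to 3.01 TPM. The 7 B cell markers summed to 13.8 to 28.0, 12.9 to 17.6 and 9.41 to 14.6 TPM. No marker of either list was at 0 in all libraries of a group, and the part of these cells in the members' levels was not tested.

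The second comparison asked what deletion of IKKβ in myeloid cells changed under Tat. Cd80, Cd86 and Lgals9 were lower in the deleted PMs, at 52.6%, 65.3% and 73.0% of the F/F Tat mean. Icosl was higher, at 1.58-fold, and Havcr2 passed the adjusted p as higher from a level below 1 TPM. Cd274 and Pdcd1lg2 did not pass, and neither did Cd40. No member passed the fold threshold with limma, beside 0.440% of tested genes called higher and 0.316% called lower. By the adjusted p alone 3 members were lower, beside 8.87% of the tested genes, and 2 were higher, beside 38.8%. The Tat groups did not overlap for 4 members (Cd80, Cd86, Icosl and Lgals9), beside 36.6% of all tested genes. The 8 genes had a median log2 fold change of -0.07, against 0.22 over all tested genes.

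Cd80 was at 24.1, 23.4, 24.3, 22.1 and 23.4 TPM in the ΔMye Tat libraries, each below every F/F Tat library and above every F/F PBS library. The log2 fold change against F/F Tat was -0.93 (SE 0.06, adjusted p = 1.67e-10, limma). Cd86 was at 99.6, 98.5, 105, 103 and 107 TPM, likewise between the other groups, with a log2 fold change of -0.61 (SE 0.05, adjusted p = 1.73e-09, limma). The 5 values of Lgals9 were 631, 644, 636, 624 and 652 TPM, a log2 fold change of -0.45 (SE 0.03, adjusted p = 1.19e-10, limma), again with no overlap with either group. The exact two-sided permutation test gave p = 0.00216 for each of these, the smallest that 5 against 6 libraries allow.

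Icosl was at 19.3, 18.9, 19.2, 20.1 and 16.2 TPM in ΔMye Tat, all above the highest F/F Tat library (12.7 TPM). Its log2 fold change was 0.66 (SE 0.10, adjusted p = 1.22e-05, limma; exact permutation p = 0.00216). Icosl thus differed from Cd80, Cd86 and Lgals9 in that it was highest in ΔMye Tat, next in F/F Tat and lowest with PBS. Havcr2 was at 0.626, 0.775, 0.906, 0.687 and 0.504 TPM in ΔMye Tat, overlapping F/F Tat. The log2 fold change of 0.55 (SE 0.17) had an adjusted p of 0.00877 (limma) and an exact permutation p of 0.0303. After median-ratio scaling it was 0.37 with an adjusted p of 0.0729 (limma), and over the alternatives with all libraries the adjusted p ran from 0.00341 to 0.317.

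Cd40 was at 841, 853, 865, 842 and 879 TPM in ΔMye Tat, where 1 library overlapped the F/F Tat range. The log2 fold change was -0.09 (95% interval -0.16 to -0.01, adjusted p = 0.0426, limma; exact permutation p = 0.00866). Cd274 was at 885, 837, 818, 822 and 756 TPM, across the F/F Tat range. The log2 fold change was -0.05 (95% interval -0.16 to 0.06, adjusted p = 0.387, limma; exact permutation p = 0.266). Their intervals hold no change as large as those of Cd80, Cd86 or Lgals9. After median-ratio scaling the log2 fold changes were -0.31 for Cd40 (adjusted p = 1.40e-05, limma) and -0.27 for Cd274 (adjusted p = 5.15e-06), which made 5 members lower and 1 (Icosl) higher, beside 19.4% and 15.9% of the tested genes. Over the alternatives with all libraries the adjusted p ran from 1.40e-05 to 0.0790 for Cd40 and from 5.15e-06 to 0.642 for Cd274 (limma). Pdcd1lg2 was at 2.91, 3.31, 1.95, 2.02 and 2.04 TPM, overlapping F/F Tat, with a log2 fold change of 0.39 (95% interval -0.12 to 0.89, adjusted p = 0.174, limma; exact permutation p = 0.0779).

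**Figure D2:**
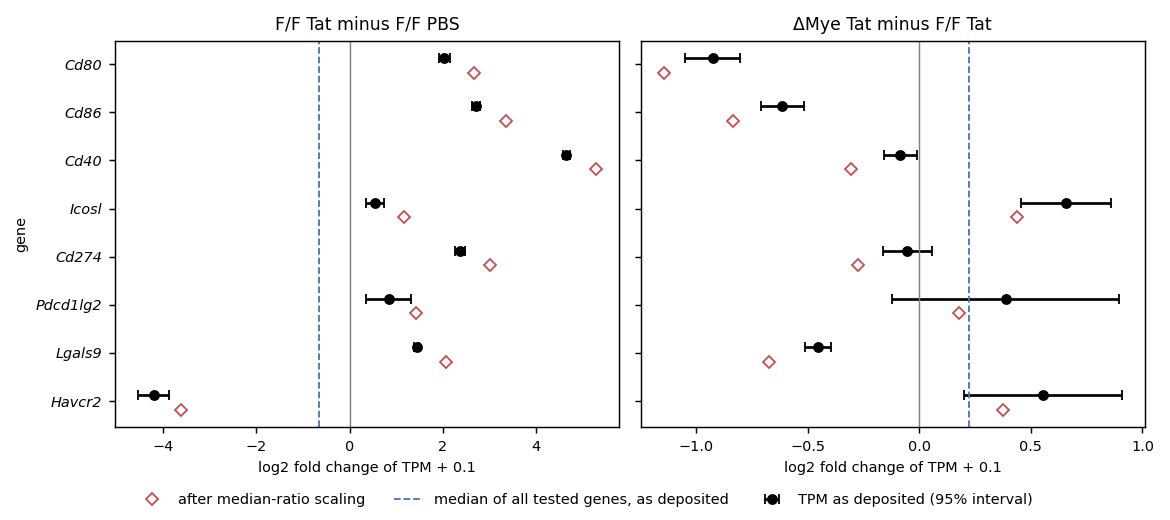
Log2 fold change of TPM + 0.1 (horizontal axis) of each gene for F/F Tat minus F/F PBS (left) and ΔMye Tat minus F/F Tat (right). Black points and bars are limma estimates with 95% intervals on the TPM as deposited, open red diamonds are values after median-ratio scaling, and the dashed line is the median of all tested genes; Cd40 (4.66) and Havcr2 (-4.20) are at the ends on the left, and Cd80 (-0.93) and Icosl (0.66) on the right.

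Against F/F PBS, ΔMye Tat still differed for all 8 genes by the adjusted p (limma). The share of all tested genes that did so was not counted, so this count does not set the members apart. By the same threshold, Tat alone in F/F PMs left 17% of the tested genes higher and 67.6% lower. The comparison of ΔMye Tat with F/F PBS shares libraries with each of the others. Cd86, Cd40 and Cd274 were called higher, beside 4.38% of the tested genes, and Havcr2 was called lower, beside 11.1%. The log2 fold changes were 4.57 for Cd40, 2.32 for Cd274, 2.10 for Cd86, 1.23 for Pdcd1lg2, 1.20 for Icosl, 1.11 for Cd80, 0.99 for Lgals9 and -3.65 for Havcr2. After median-ratio scaling Icosl (1.61) and Pdcd1lg2 (1.60) also passed the fold threshold, and the share of all tested genes called at that setting is not given here. Set beside the changes with Tat in F/F PMs, the changes without scaling were close for Cd40 (4.66) and Cd274 (2.37). They were lower for Cd80 (2.03), Cd86 (2.72) and Lgals9 (1.45), and higher for Icosl (0.54).

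TPM are per length, so the levels of different genes can be set side by side. In F/F PBS the order of mean TPM from the highest was Lgals9, Cd274, Cd40, Cd86, Cd80, Havcr2, Icosl and Pdcd1lg2, and only the neighbours Cd80 and Havcr2, and Havcr2 and Icosl, overlapped in range. In F/F Tat it was Cd40, Lgals9, Cd274, Cd86, Cd80, Icosl, Pdcd1lg2 and Havcr2, with overlap among the leading 3 genes. In ΔMye Tat, Cd40 and Cd274 overlapped at the head of the order, and Lgals9 came next, below both in all 5 libraries. Havcr2 moved from the 38.6 percentile of the tested genes in F/F PBS to 3.97 in F/F Tat, and Cd80 from 41.1 to 80.2, then 66.9 in ΔMye Tat. The spread between libraries differed among the genes. The coefficient of variation was 2.77%, 3.80% and 1.75% for Lgals9 (PBS, F/F Tat and ΔMye Tat), and 38.4%, 21.1% and 25.6% for Pdcd1lg2.

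Genes that share a partner were also compared as ratios within each library, which do not depend on the scaling of libraries except through the pseudocount. The 3 pairs and 3 comparisons made 9 exact two-sided permutation tests. Cd86 exceeded Cd80 by mean TPM, 2.19-fold with PBS, 3.52-fold in F/F Tat and 4.37-fold in the ΔMye group. The ratio of Cd80 to Cd86 was 0.373, 0.453 and 0.549 (lowest, median, highest) with PBS, 0.267, 0.284 and 0.302 in F/F Tat, and 0.215, 0.232 and 0.242 after deletion. None of these ranges overlapped. The log2 ratio was lower by 0.69 with Tat and again by 0.31 in ΔMye Tat (a log2 difference of -0.69 and -0.31, exact permutation p = 0.00216, adjusted p = 0.00325 for each). Cd86 thus rose more than Cd80 with Tat, and Cd80 was reduced more than Cd86 in ΔMye Tat.

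The ratio of Cd274 to Pdcd1lg2 by mean TPM was 160.4 with PBS, 466 in F/F Tat and 337 in the ΔMye group. Between libraries it ran from 104 to 352 in F/F PBS and from 380 to 674 in F/F Tat, without overlap (log2 difference 1.53, exact permutation p = 0.00216, adjusted p = 0.00325). In ΔMye Tat it ran from 253 to 419, overlapping F/F Tat (log2 difference -0.44, exact permutation p = 0.0281, adjusted p = 0.0281). This last difference was lost with an exact Wilcoxon test (adjusted p = 0.0519) and when any of 6 libraries (F/F Tat 8, 10, 11 or 12, ΔMye 19 or 20) was left out, with adjusted p up to 0.0810 (exact permutation). The ratio of Lgals9 to Havcr2 by mean TPM was 32.6 with PBS, 1932 in F/F Tat and 911 in the ΔMye group. The log2 differences were 5.65 with Tat (exact permutation p = 0.00216, adjusted p = 0.00325) and -1.01 in ΔMye Tat (exact permutation p = 0.00433, adjusted p = 0.00557), with no overlap in either. With Havcr2 below 1 TPM, these sizes depend on the pseudocount.

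**Figure D3:**
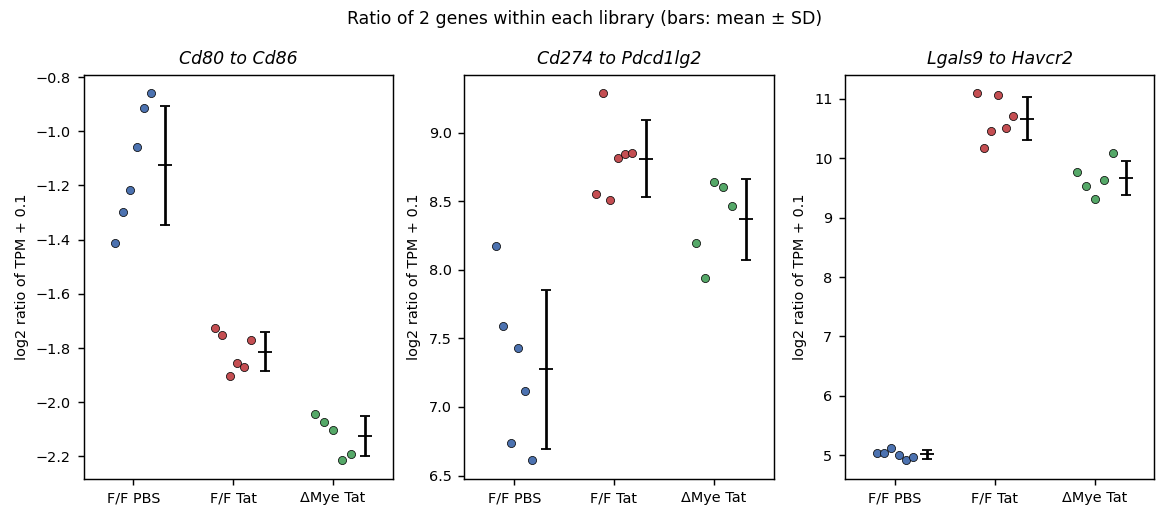
Log2 ratio (vertical axis, log2 of (TPM + 0.1) ratios) of Cd80 to Cd86, Cd274 to Pdcd1lg2 and Lgals9 to Havcr2 in each library of F/F PBS (n = 6), F/F Tat (n = 6) and ΔMye Tat (n = 5), with bars for the mean ± SD. The 3 groups step down without overlap for Cd80 to Cd86, and F/F Tat is the highest for the other pairs.

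For each member, the genes most like it were those with the highest Pearson correlation of log2(TPM + 0.1) over the 17 libraries, among genes that averaged 10 TPM or more in a group. The libraries fall into 3 groups, so such values describe mainly the differences between groups. Cd80 was nearest to Ifit3 (r = 0.994), which was at a mean of 148, 1110 and 458 TPM (PBS, then F/F Tat, then ΔMye Tat), and Cd86 to Ifi204 (r = 0.999), at 170.1, 881 and 609 TPM. Lgals9 was nearest to Ifi208 (r = 0.998), at 3.404, 80.0 and 29.9 TPM. These 3 members and their nearest genes were intermediate in ΔMye Tat. Cd40 was nearest to Acod1 (r = 0.9996), at 282, 3029 and 2877 TPM, and to Il1b (r = 0.999), and Cd274 to Axl (r = 0.999), at 17.8, 240.3 and 216 TPM. Icosl was nearest to Tnfaip2 (r = 0.9749), at 264, 416 and 696 TPM, which like Icosl was highest in ΔMye Tat. Pdcd1lg2 was nearest to Gpr132 (r = 0.918) and Havcr2 to Prxl2b (r = 0.995), which went from 48.2 TPM with PBS to 4.76 with F/F Tat and 6.86 TPM in the ΔMye group.

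Other genes of the same signalling were counted in lists that were chosen with earlier results of these data known. Of 7 further B7 and butyrophilin genes 2 were tested, and both were lower with Tat by the adjusted p, beside 67.6% of all tested genes. Vsir, which encodes the inhibitory B7 family member VISTA, went from 82.5 ± 7.33 TPM in F/F PBS to 8.01 ± 0.996 TPM in F/F Tat and was at 16.9 ± 1.14 TPM in ΔMye Tat. Its log2 fold changes were -3.35 with Tat (adjusted p = 1.32e-18, limma) and 1.07 between the Tat groups, ΔMye minus F/F (adjusted p = 2.01e-09). Vsig4, a complement receptor with inhibitory action on T cells, went from 10.8 ± 1.68 to 5.18 ± 0.376 TPM with Tat. Vsir thus fell with Tat, as Havcr2 did, while the ligand genes of the B7 family among the members rose.

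Of 7 costimulatory ligands of the TNF family 5 were tested, and 4 were called higher with Tat and 0 lower, beside 5.21% and 19.4% of all tested genes. Of these 4, Tnfsf15, Cd70 and Tnfsf8 were under 1 TPM in every F/F PBS library and passed the filter through the Tat groups alone, so a higher level with Tat was built into their being tested. Tnfsf15, which encodes TL1A, rose from 0.531 ± 0.171 to 60.1 ± 4.01 TPM, a log2 fold change of 6.61 (SE 0.13, adjusted p = 1.34e-19, limma), and Tnfsf9, which encodes 4-1BB ligand, rose from 20.5 ± 1.39 to 82.2 ± 4.13 TPM. The others called, Cd70 and Tnfsf8, were named after their values were seen and had means of 1.14 and 0.9753 TPM in F/F Tat. In ΔMye Tat, Tnfsf9 was at 69.7 ± 3.81 TPM, lower than in F/F Tat by the adjusted p (6.49e-04, limma), and Tnfsf15 was at 68.0 ± 8.34 TPM (adjusted p = 0.291). Of 15 other inhibitory or adhesive ligands 11 were tested, with 7 higher and 4 lower with Tat by the adjusted p, beside 17% and 67.6% of all tested genes. Cd200 rose from 59.3 ± 2.07 to 167 ± 7.11 TPM and Cd47, the ligand of SIRPα, from 161 ± 6.64 to 441 ± 13.9 TPM. Ceacam1, known as a TIM-3 ligand, was the 1 gene of this list called, beside 19.4% of all tested genes called lower. It fell from 21.96 ± 2.06 to 5.17 ± 0.774 TPM. Lgals1, which encodes galectin-1, fell from 1016 ± 22.98 to 424 ± 14.1 TPM and was at 571 ± 29.7 TPM in ΔMye Tat.

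Inhibitory receptors of macrophages form the group nearest to Havcr2. Of 11 listed 8 were tested, with 2 higher and 5 lower with Tat by the adjusted p, beside 17% and 67.6% of all tested genes. Lair1, Pirb and Cd200r1 were called lower, beside 19.4% of all tested genes. The 2 higher by the adjusted p were Pilra and Timd4. Pilra went from 45.8 ± 3.64 to 100.4 ± 3.83 TPM with Tat (log2 fold change 1.13, adjusted p = 3.30e-14, limma). After median-ratio scaling the counts by the adjusted p were 3 higher and 4 lower, and the share of all tested genes at that setting was not counted. Siglece, named after its values were seen, changed with scaling from a log2 fold change of -0.38 to 0.25. Lair1, a collagen receptor, fell from 26.4 ± 1.98 to 1.53 ± 0.382 TPM, a log2 fold change of -4.05 (SE 0.13, adjusted p = 2.47e-16, limma), and was at 5.32 ± 0.596 TPM in ΔMye Tat, where it was called higher than in F/F Tat. Pirb, a receptor for MHC class I, went from 14.6 ± 1.92 to 3.50 ± 0.889 TPM and was at 8.43 ± 1.20 TPM in ΔMye Tat. Cd200r1, the receptor of CD200, fell from 131 ± 5.83 to 42.0 ± 1.64 TPM while its ligand gene Cd200 rose. Timd4, a phosphatidylserine receptor of the TIM family, went the other way from Havcr2. It rose from 12.7 ± 1.38 to 21.7 ± 1.64 TPM with Tat and was called lower in ΔMye Tat, at 7.09 ± 0.563 TPM (log2 fold change -1.60, adjusted p = 4.82e-12, limma).

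All 10 genes listed for signalling from CD40 were tested. With Tat 6 were higher and 3 lower by the adjusted p, beside the same 17% and 67.6%. After median-ratio scaling 8 were higher and 0 lower. The share of all tested genes at that setting was not counted, and scaling moved their median log2 fold change from -0.65 to -0.03. Traf1, an adaptor, was the 1 gene called, beside 5.21% of all tested genes called higher. It went from 21.98 ± 2.85 to 397 ± 14.2 TPM, a log2 fold change of 4.18 (SE 0.07, adjusted p = 3.92e-21, limma). It was at 325 ± 19.2 TPM in ΔMye Tat (log2 fold change -0.29, adjusted p = 0.00170, limma). Tank, Traf2 and Birc3 rose by 0.96, 0.88 and 0.86 on the log2 scale with Tat, and did not pass the adjusted p between the Tat groups on the TPM as deposited. After median-ratio scaling Traf2 (-0.30, adjusted p = 8.93e-05, limma) and Birc3 (-0.31, adjusted p = 4.33e-06) passed as lower in ΔMye Tat. Tank did not pass after scaling (-0.13, adjusted p = 0.0297, limma).

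**Figure D4:**
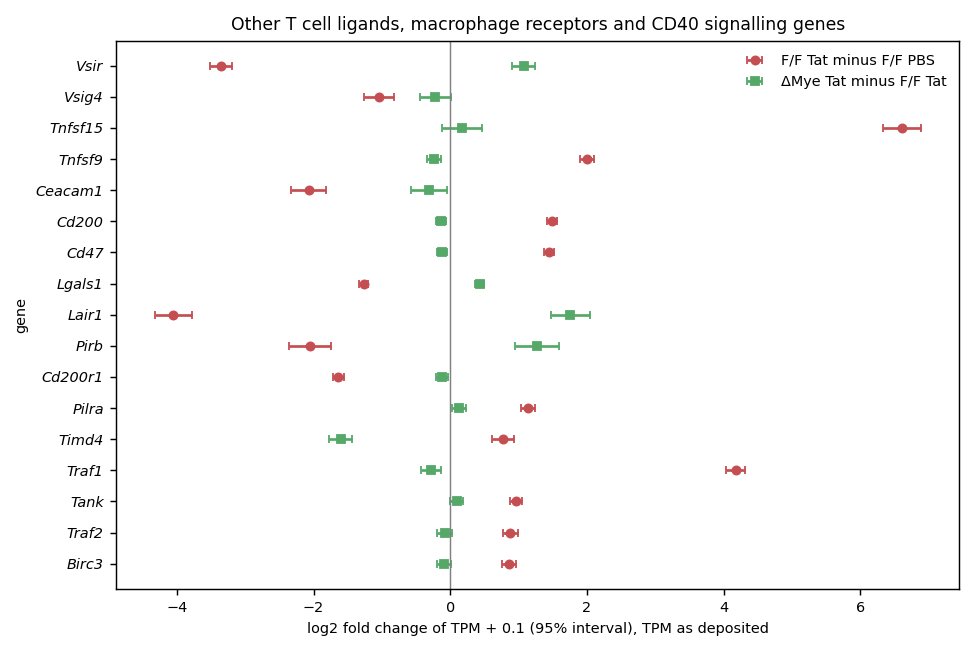
Log2 fold change of TPM + 0.1 (horizontal axis) with 95% intervals from limma, on the TPM as deposited, of the named genes of the other lists, for F/F Tat minus F/F PBS (red circles) and ΔMye Tat minus F/F Tat (green squares). Tnfsf15 (6.61) and Traf1 (4.18) are farthest to the right and Lair1 (-4.05) and Vsir (-3.35) farthest to the left, and Timd4 is the gene that is higher with Tat and farthest below 0 in ΔMye Tat (-1.60).

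Receptors of T cells for the members and for other costimulatory or checkpoint ligands were listed as counter-receptors, and were near the limit of the filter. Of 12 counter-receptor genes 6 were tested, and their summed level was 3.47 to 6.69 TPM with PBS, 11.1 to 13.8 with F/F Tat and 15.0 to 19.1 TPM in the ΔMye group. Of the 12, Cd28, Ctla4, Icos and Cd40lg encode the partners of members named above, and the sums also hold receptors of other ligands. Ctla4, Icos and Cd40lg of this list, and Pdcd1 outside it, had means under 1 TPM in every group. These partners of the members were named after their values were seen. The 3 genes of this list called higher with Tat were Tnfrsf9, Lag3 and Tnfrsf4, beside 5.21% of all tested genes. Each had a median under 1 TPM with PBS, so it needed the Tat groups to pass the filter. Cd28, the costimulatory partner of CD80 and CD86, was the 1 gene of this list called lower with Tat, beside 19.4% of all tested genes. It went from 1.22 ± 0.225 to 0.210 ± 0.225 TPM (log2 fold change -2.32, adjusted p = 2.01e-06, limma). Cd28 passed the filter through the F/F PBS libraries alone, so a lower level with Tat was built into its being tested. The highest of those tested in F/F Tat was Tnfrsf9, the receptor of 4-1BB ligand, at 0.643 ± 0.420 TPM with PBS and 4.85 ± 0.716 TPM in F/F Tat (adjusted p = 8.93e-10, limma). Its median with PBS was 0.465 TPM, so Tnfrsf9 needed the Tat groups to pass the filter, which built in a higher level with Tat. In ΔMye Tat the highest was Tnfrsf4, which encodes OX40, at 4.85 ± 1.11 TPM against 1.51 ± 0.410 TPM in F/F Tat. It was the 1 gene of this list called between the Tat groups (log2 fold change 1.64, adjusted p = 0.00346, limma), beside 0.440% of all tested genes called higher. Cd28, Tnfrsf9, Lag3 and Tnfrsf4 were also named after their values were seen. The 9 T cell markers summed to 8.48 to 15.3 TPM with PBS, 7.59 to 9.19 with F/F Tat and 15.7 to 17.6 TPM in the ΔMye group, with none at 0 in all libraries of a group. The part of T cells in these levels was not tested.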

How the data were processed

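RNA-Seq of 17 peritoneal macrophage libraries was analysed, grouped by the sample labels. A further allele that all groups share is not reported here. The authors ran Salmon with Ensembl gene models for GRCm38 and deposited TPM by gene symbol (21683 rows, 26 of them with dates in place of symbols). Their own edgeR comparison was not repeated. Isolation was 3 days after 1 mL of 3% thioglycollate per the labels, and a day later per the methods. TPM hold no read counts, so depth and counting error are unknown.

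The main test was limma 3.58.1 (R 4.3.3, moderated with a mean-variance trend) on log2(TPM + 0.1) of the 10451 genes that reached 1 TPM in 5 or more libraries, in a joint fit of the 3 groups (14 residual degrees of freedom) with Benjamini-Hochberg adjustment. The script was tested on simulated data. Single genes and ratios were also compared by exact two-sided permutation tests, with ratio p-values adjusted over 9 tests. Coordinates are from GENCODE M21. The members and lists were chosen with earlier results of these data known. From each list the text names up to 4 genes of largest change with Tat (adjusted p under 0.01 and 5 TPM or more on average in the higher group) and those called between the Tat groups at that level. The alternatives were median-ratio scaling, quantile normalization, a pseudocount of 0.5 or 1, a filter at 5 TPM or none, a fit of the compared groups, array weights with robust eBayes, an exact Wilcoxon test for ratios, and each library left out in turn. Other software was Python 3.11.15, scipy 1.17.1 (exact Wilcoxon test), pandas 2.3.3, numpy 2.4.6 and matplotlib 3.10.9.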

Additional observations from a re-analysis of the deposited data

How the results depend on the processing

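No value of a member or ratio changed direction in any alternative. With Tat against PBS all 8 members passed the adjusted p in each setting in which they were tested, and the filter at 5 TPM removed Pdcd1lg2. For ΔMye Tat against F/F Tat the members higher by the adjusted p numbered 1 instead of 2 with pseudocounts of 0.5 and 1, without a filter, with the filter at 5 TPM, with median-ratio scaling, with quantile normalization and in the fit of the compared groups, and 1 to 2 with a library left out, since Havcr2 was lost. Leaving out any F/F PBS library, F/F Tat library 7, 10 or 12, or ΔMye library 19, 20, 21 or 22 lost it, with adjusted p over leave-one-out fits of 0.00284 to 0.0304 (limma). Median-ratio scaling made the lower members 5 instead of 3. For ΔMye Tat against F/F PBS, members called higher numbered 5 instead of 3 with median-ratio scaling and with quantile normalization. In the main test 4.38% of all tested genes were called higher, and the share with these alternatives is not given here. The log2 ratio of Cd274 to Pdcd1lg2 in ΔMye Tat against F/F Tat (-0.44) had an adjusted p of 0.0519 with the exact Wilcoxon test, and without a library it was -0.51 to -0.33 (adjusted p 0.0238 to 0.0810, exact permutation), above 0.05 without F/F Tat library 8, 10, 11 or 12 or ΔMye library 19 or 20.

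Over all tested genes, those called higher with Tat numbered 889 with median-ratio scaling and 867 with quantile normalization, against 545, and those called lower 1197 with a pseudocount of 1, 1281 with the filter at 5 TPM, 1017 with scaling and 826 with quantile normalization, against 2031. For ΔMye Tat against F/F Tat, genes called higher numbered 15 and 10 with pseudocounts of 0.5 and 1, 18 with the filter at 5 TPM, 25 with scaling and 16 with quantile normalization, against 46, and genes called lower 20 with a pseudocount of 1, 64 with scaling and 55 with quantile normalization, against 33. For ΔMye Tat against F/F PBS, genes called lower numbered 601, 689, 658 and 544 with a pseudocount of 1, the filter at 5 TPM, scaling and quantile normalization, against 1165. No paired analysis was possible because the groups share no replicate numbers. The depth is unknown, so the precision of Havcr2 and Pdcd1lg2, the lowest members, is known from the spread between libraries alone.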
